A study of Mus musculus with 70 samples.

Results

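Gene expression was compared across one step of the kidney-to-lung metastasis route (K-LM) of the RENCA model, from passage 4 (P4, replicates 1, 3 and 5) to passage 5 (P5, replicates 2, 3, 5 and 6). The samples were chosen by their titles. They are 7 of the 65 RNA samples of the series, which were hybridised on 70 arrays. RENCA is a renal adenocarcinoma line of BALB/c mice, and every cell population here carried a GFP transgene introduced with a lentiviral vector. For K-LM, the cells were injected under the capsule of the left kidney of wild-type female BALB/c mice, 6 weeks old, and the cells that had spread to the lungs were recovered, cultured and injected into kidneys again. P4 cells had been through 4 such rounds and P5 cells through 5, and no other treatment or genotype separated them. Per the study's methods, the lung tissue was digested with collagenases and the cells were grown for about 2 weeks, by which time none without GFP was seen. Each sample is therefore RNA of a cultured population and not of a metastasis. The other two routes, used here for comparison only, were cells recovered from the kidney tumour itself (KPT, 3 P4 and 5 P5 samples) and from lung tumours seeded through a tail vein (T-LM, 4 P4 and 6 P5 samples), in mice of the same strain. The parental population before injection is called P0. The labels give neither the mouse behind each sample nor which P4 culture was injected to give which P5 culture, so the p-values measure the spread between samples, which may be technical in part. In the limma fits that spread was pooled over all samples of the fit and not over these 7 alone.

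Spontaneous metastasis from the kidney asks a cell to leave the primary tumour, survive in the blood, stop in the small vessels of the lung and grow there among macrophages, fibroblasts and their matrix. Growing carcinoma cells make fatty acids and cholesterol for new membranes, and take signals from growth factor receptors, from bone morphogenetic proteins (BMP) and from Notch ligands on neighbouring cells.

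Levels are given as the log2 of a probe's background-subtracted signal relative to the 75th percentile of 11290 probes detected on all 70 arrays, so that a level of 0 is as bright as that percentile. A change is the P5 mean minus the P4 mean on this scale, followed by its standard error, and a probe counted as detected when the scanner software called it well above background. Between 31.6% and 35.9% of probes were detected on the P4 arrays and between 27.7% and 33.1% on the P5 arrays. The 7 arrays lay on 5 slides, of which 1 held P4 replicate 3 with P5 replicate 5 and another held P4 replicate 5 with P5 replicate 6. The 4 P5 samples formed close pairs. Replicates 2 and 5 differed with an SD of 0.299 over probes and replicates 3 and 6 with an SD of 0.370, whereas the other P5 pairs gave 0.542 to 0.594 and the P4 pairs 0.789 to 1.20. Repeat arrays of one RNA gave 0.371 to 0.492. The second array of each repeat lay on another slide, scanned with another software version. The arrays of each close P5 pair also lay on different slides, but without the change of software. The close P5 pairs were thus at least as alike as repeats of one RNA across that change of slide and software. No repeats without the change of software were at hand. They were kept as 4 samples, as labelled, and the results were also computed with each pair averaged.

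The P4 and P5 samples separated as groups. The groups accounted for 33.8% of the summed squared distance between the 7 samples (1-sided exact permutation test over the 35 assignments, p = 0.0286, the smallest this design allows), although the first 2 principal components, with 41.7% and 31.8% of the variance, were led by P4 replicates 1 and 5. With the P5 pairs averaged the share was 30.6% and the exact p was 0.30, where 3 samples against 2 cannot go below 0.10. In a limma fit of the K-LM passages P2 to P5 and P0 (15 arrays), 9 of 20570 probes passed an adjusted p of 0.01 (0.0438% of those tested), 1 of them higher in P5 and 8 lower (0.00486% and 0.0389%). At an adjusted p of 0.05, 676 passed (3.29%), of which 123 were higher (0.598%) and 553 were lower (2.69%), and 4919 had an unadjusted p under 0.05. Counting 1 probe per gene, 74 of 11672 genes were higher (0.634%) and 266 lower (2.28%) at 0.05, while 10.8% of genes had all P5 samples above all P4 samples and 17.8% had them all below. The median change over all probes was -0.06. With the P5 pairs averaged, limma called 0 probes at 0.01 and 0 at 0.05, with 2427 at an unadjusted p under 0.05. Without P5 replicate 2, 3 or 5 the count at 0.01 was 0 and without replicate 6 it was 1, while 23 probes passed without P4 replicate 1 and 50 without P4 replicate 3. Without P4 replicate 5 the split turned, to 9 higher and 3 lower. Leaving out P5 replicates 2, 3, 5 and 6 in turn left 35, 45, 47 and 140 probes at 0.05, and leaving out P4 replicates 1 and 5 left 241 and 426. Many of the lower calls were at the limit of detection: of the 553, 197 were not detected on any P5 array and 223 were detected on all 7 arrays. Below, "rose" and "fell" mean an adjusted p of 0.05 or less, and the genes that passed 0.01 are named as such. Counts of genes in a list are to be set against the shares over all genes given here.

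The largest rise was that of Pf4, the chemokine platelet factor 4 (Cxcl4), which passed 0.01. Its level was -6.38, -8.15 and -6.23 in P4 replicates 1, 3 and 5, and -3.45, -2.65, -2.86 and -0.90 in P5 replicates 2, 3, 5 and 6. It was detected in 1 P4 sample and in all 4 P5 samples, P5 replicate 6 stood highest, and the groups did not overlap. The change was 4.46 ± 0.53 (limma adjusted p = 0.00918). The adjusted p was 0.052 with the P5 pairs averaged and 0.16 in a fit that estimated the spread over all 3 routes. Pf4 is made by megakaryocytes and also by macrophages. Its promoter is shown because Pf4 carries the only rise past 0.01, and it was searched for letters known as blood-cell motifs (RefSeq, GRCm38.p6, chr5:90772185-90772484, plus strand, 250 bases before to 50 after the start). Capitals mark a PU.1-type ETS motif, GAGGAAG, read on the other strand as CTTCCTC at position -9 from the start, and a GATA motif, AGATAA, at position 36.

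Pf4 promoter: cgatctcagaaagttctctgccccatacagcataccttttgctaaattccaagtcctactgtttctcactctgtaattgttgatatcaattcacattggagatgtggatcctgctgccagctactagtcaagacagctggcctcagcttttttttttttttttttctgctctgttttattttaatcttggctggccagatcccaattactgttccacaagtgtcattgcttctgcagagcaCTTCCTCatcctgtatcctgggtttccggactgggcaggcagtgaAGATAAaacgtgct

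On either strand, GAGGAAG was found in 13.6% and AGATAA in 11.2% of 32851 promoter windows of this length. Of the 22 windows matched for the macrophage and leukocyte list below, GAGGAAG was found in 9 and AGATAA in 2.

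Other genes that macrophages express strongly were also higher at P5. Ctss, the lysosomal protease cathepsin S, was at -4.16, -6.79 and -5.56 in P4 and at -2.95, -2.88, -3.05 and -1.19 in P5, without overlap, and rose by 2.98 ± 0.61 (adjusted p = 0.0299). Tyrobp, the signalling adaptor DAP12 of myeloid receptors, was at -5.11, -8.45 and -7.75 in P4 and at -4.72, -3.75, -4.73 and -2.24 in P5 and rose by 3.24 ± 0.77 (adjusted p = 0.0426). It was detected in P4 in replicate 1 alone and in every P5 sample. Ccl6, a myeloid chemokine, was at -2.40, -6.45 and -4.87 in P4 and at -1.59, -1.14, -1.37 and 0.60 in P5 and rose by 3.70 ± 0.89 (adjusted p = 0.0432). In all 3 genes P4 replicate 1 was the highest P4 sample, P4 replicate 3 the lowest, and P5 replicate 6 the highest of the 7. The same samples were highest and lowest for genes that did not pass: Ccl9 changed by 2.55 ± 0.78 (adjusted p = 0.0837) and Lyz2, lysozyme M, chosen after its values were seen, by 2.2 ± 0.60 (adjusted p = 0.0617). Among CC chemokines, 10 of the 10 tested had a positive change and 1 rose, with a median of 0.75 against -0.06 over all genes tested.

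The macrophage and leukocyte list as a whole held few calls. Of 32 listed genes 17 were tested, 2 rose (Ctss and Tyrobp), none fell, 8 changes were positive and 9 negative, and the median was -0.08. The mean level of all 32 genes ran from -6.16 to -5.31 over the P4 samples and from -5.25 to -4.70 over the P5 samples. Background signal of undetected genes enters these means, whereas the median covers the 17 tested genes. The 12 listed genes never detected in the 7 samples included Ptprc (CD45, carried by all leukocytes), Mrc1, C1qa, C1qb and C1qc of tissue macrophages, and the lymphocyte genes Cd3g and Cd8a. Adgre1, a macrophage surface receptor, was detected in 1 P4 and 1 P5 sample, and its highest levels were -4.49 in P4 replicate 1 and -5.36 in P5 replicate 6. Csf1r, the macrophage colony-stimulating factor receptor, changed by -0.19 ± 0.66 and Cd68 by -0.08 ± 0.27. Both were also detected in the parental P0 cells. In these bulk cultures more cells of one type and more RNA per cell cannot be told apart, and the part of non-carcinoma cells in the Pf4, Ctss, Tyrobp and Ccl6 levels was not tested.

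**Figure D1:**
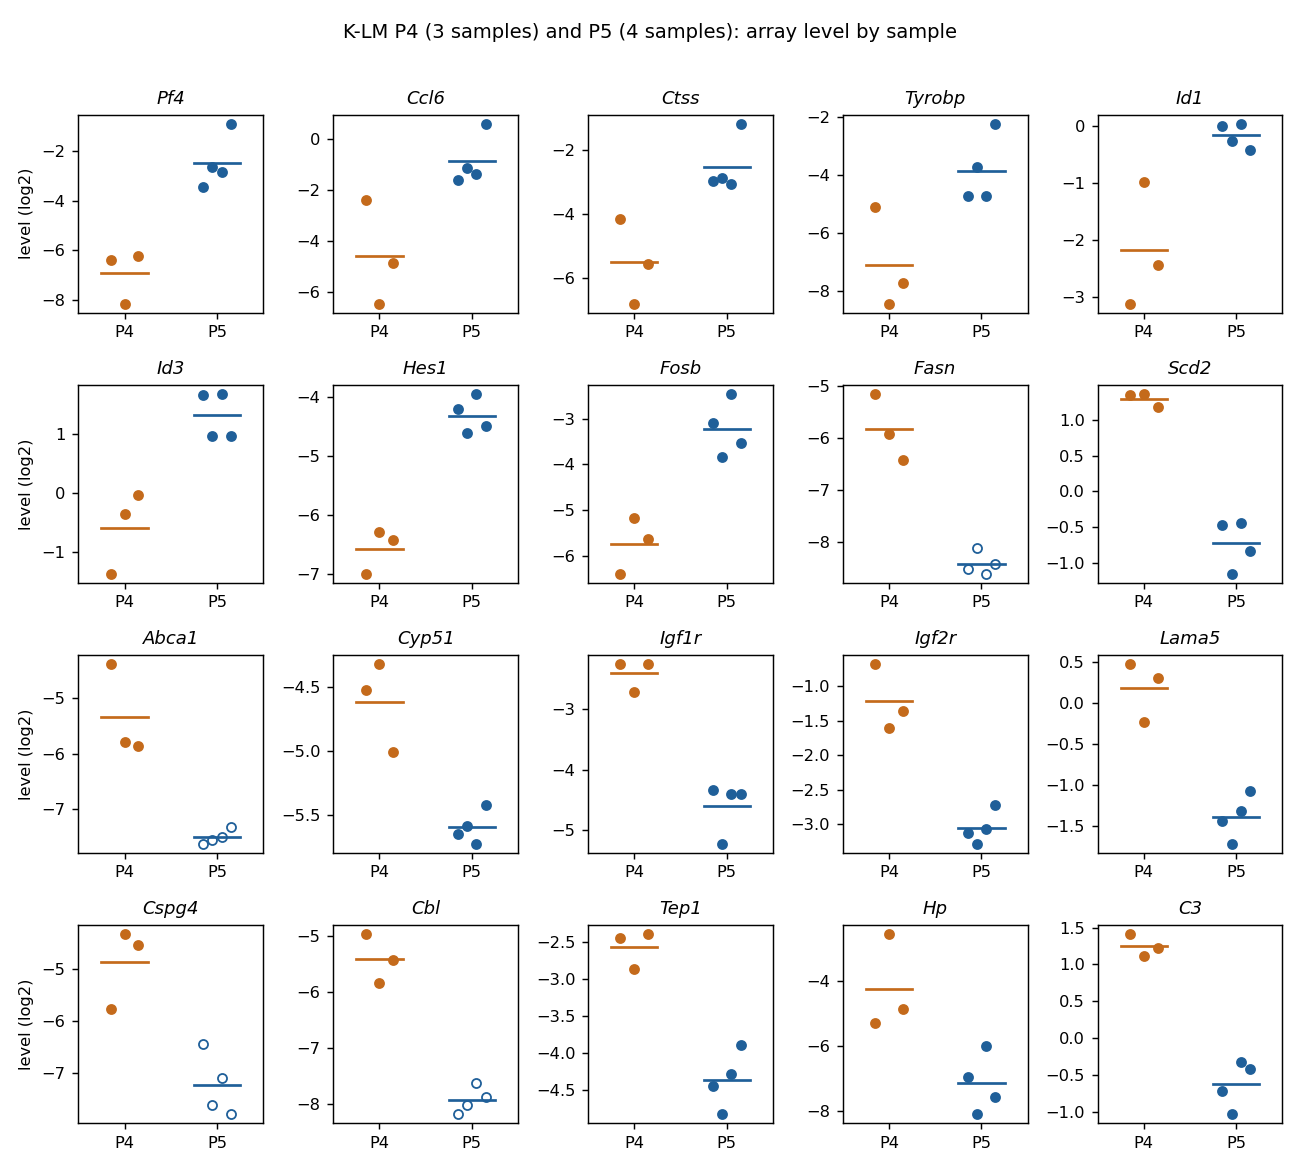
Array level (log2, relative to the 75th percentile of commonly detected probes) of 20 genes in the 3 P4 samples (orange) and 4 P5 samples (blue) of K-LM. Each point is a sample, the bar is the group mean, and open points mark a group in which no array detected the gene. The 8 genes Pf4 to Fosb were higher in P5 and the 12 genes Fasn to C3 lower, and the groups overlapped in none of them.

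Genes of fatty acid and cholesterol supply were lower at P5. Fasn, the synthase that makes palmitate, passed 0.01. Its level was -5.16, -5.93 and -6.42 in P4 and -8.52, -8.11, -8.60 and -8.42 in P5. The groups did not overlap, but the probe was detected in 2 P4 samples and in no P5 sample, so no size was measured. Set against the lowest detected signal, Fasn was 1.39-fold lower (limma adjusted p = 0.00918, and 0.155 with the P5 pairs averaged). As P4 replicate 5 was undetected, that fold is no strict bound. Abca1, which exports cholesterol from cells, was detected in all P4 samples and in no P5 sample and was at least 1.96-fold lower (adjusted p = 0.0110).

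The Fasn promoter is shown as that of the most strongly called gene of lipid supply (RefSeq, GRCm38.p6, chr11:120824498-120824797, minus strand). Capitals mark matches to the CCAAT box on either strand (CCAAT or ATTGG), which start at positions -90, -62 and -59 from the start site. The last 2 overlap.

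Fasn promoter: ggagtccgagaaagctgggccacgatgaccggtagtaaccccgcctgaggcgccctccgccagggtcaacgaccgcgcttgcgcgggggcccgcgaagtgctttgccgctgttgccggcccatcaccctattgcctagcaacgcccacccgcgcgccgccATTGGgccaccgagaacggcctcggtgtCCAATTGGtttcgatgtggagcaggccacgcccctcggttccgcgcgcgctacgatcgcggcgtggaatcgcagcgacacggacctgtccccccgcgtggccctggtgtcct

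CCAAT was found in 37.4% of all promoter windows and in 21 of the 27 windows matched for the 40 genes of the cholesterol and fatty acid list. The sterol regulatory element TCACNCCAC was found in 1.24% of all windows and in 1 of these 27, and the E-box CACGTG in 7.15% and in 5.

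The desaturases, detected in every sample, gave measured changes. Scd2, which with Scd1 puts the double bond into stearate, was at 1.35, 1.37 and 1.18 in P4 and at -0.47, -1.15, -0.44 and -0.83 in P5. The P4 samples lay close together and well clear of P5, and Scd2 fell by 2.02 ± 0.29 on the log2 scale (adjusted p = 0.0111). Scd1 was at -1.09, -1.04 and -1.48 in P4 and at -2.93, -2.53, -3.22 and -2.53 in P5 and fell by 1.60 ± 0.35 (adjusted p = 0.0357). Cyp51, the lanosterol demethylase of cholesterol synthesis, changed by -0.98 ± 0.22 (adjusted p = 0.0357), and Mylip, a ubiquitin ligase induced by sterols, by -1.17 ± 0.26 (adjusted p = 0.0377). Of the 39 tested genes of cholesterol synthesis, uptake and efflux with the fatty acid enzymes, these 6 fell, none rose, 17 had all P5 samples below all P4 samples, and the median change was -0.45. Over all genes tested, 2.28% fell, 17.8% lay wholly below and the median was -0.06. Acaca, acetyl-CoA carboxylase, changed by -1.43 ± 0.40 and did not pass (adjusted p = 0.0644), and its direction turned when the transcript-length measure described below entered the fit (0.30 ± 0.33). Abca1 exports sterol, so the 6 genes that fell did not all act on one side of lipid supply.

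The other named genes that passed 0.01 were also lower at P5. Cbl, a ubiquitin ligase for activated receptor tyrosine kinases, was at -4.96, -5.83 and -5.43 in P4 and between -8.17 and -7.62 in P5, where no array detected it, and was at least 1.88-fold lower (adjusted p = 0.010). Tep1, a component of the telomerase and vault particles, was at -2.45, -2.87 and -2.40 in P4 and at -4.45, -4.83, -4.29 and -3.90 in P5 and fell by 1.80 ± 0.25 (adjusted p = 0.010). Six4, a homeobox transcription factor of kidney and muscle development, was at -3.53, -4.36 and -4.55 in P4 and at -6.18, -6.28, -6.46 and -5.94 in P5, detected there on 2 arrays, and fell by 2.07 ± 0.28 (adjusted p = 0.010). Lyst, which governs the size of lysosomes, was detected in 2 P4 samples and no P5 sample (adjusted p = 0.010). It was 1.04-fold lower against the lowest detected signal, which is no strict bound. The groups did not overlap in any of these genes. The other 3 probes that passed have no gene symbol in the table used for names. Cbl and Lyst were detected on no array of the limma fit outside P4. They were thus tested only because of P4, where they were higher, and their p-values do not allow for that.

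Genes of several receptors fell. Igf1r, the insulin-like growth factor receptor, was at -2.24, -2.71 and -2.25 in P4 and at -4.35, -5.24, -4.41 and -4.40 in P5 and fell by 2.2 ± 0.41 (adjusted p = 0.0233). Igf2r, which clears the ligand IGF2, was at -0.67, -1.61 and -1.35 in P4 and at -3.13, -3.29, -3.07 and -2.72 in P5 and fell by 1.84 ± 0.38 (adjusted p = 0.0299). In both genes the P4 and P5 levels were well apart, and P5 replicate 3 was the lowest. They were the 2 of 12 tested members of the insulin-like growth factor axis that passed, and Igfbp5, with the largest change of that list, did not (at least 3.58-fold lower, adjusted p = 0.114). The Wnt receptors Fzd4 (-1.48 ± 0.33, adjusted p = 0.0375) and Lrp6 (-1.72 ± 0.37, adjusted p = 0.0349) fell, as did Jak2, the kinase below cytokine receptors (-1.13 ± 0.26, adjusted p = 0.0394). These were 2 of 17 Wnt genes and 1 of 23 genes of the IL-6 family and its feedback, with medians of -0.40 and -0.35. Over all genes tested, 2.28% fell and the median was -0.06.

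The list of very long mRNAs had the lowest median change of the lists examined. All 29 tested members were lower, 27 of them without overlap, 13 fell, and the median was -1.56. Among them were Lrp1, an endocytic receptor (-2.57 ± 0.47, adjusted p = 0.0223), Dync1h1, the dynein heavy chain (-2.13, adjusted p = 0.025), and the giant protein Ahnak (-2.01 ± 0.36, adjusted p = 0.0204), 1 of whose 4 probes gave a change of 0.78. The 77 cytosolic ribosomal protein genes, whose mRNAs are short and abundant, had positive changes without exception, 46 of them without overlap, and a median of 0.41. Only Rpl24 passed (0.84 ± 0.21, adjusted p = 0.0442). Over all genes tested, 2.28% fell and 0.634% rose, while 17.8% lay wholly below and 10.8% wholly above. Of 76 genes of the mitochondrial respiratory chain 71 were positive and none passed, with a median of 0.35. With the measure of the next paragraph as a covariate both medians turned, to -0.13 and -0.0026. The ribosomal protein list is itself part of that measure, so the turn of its median is no separate result.

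The mean of the long mRNA list minus the mean of the ribosomal protein list was taken as an index of each array, because RNA quality and amplification can move it. The index was -7.06, -7.34 and -7.47 in P4 and -9.10, -9.74, -8.98 and -8.86 in P5. The groups did not overlap, and the difference of -1.88 had an exact 2-sided permutation p of 0.0286, the smallest possible. Within the slides that held both groups it was -1.64 and -1.38. With the index as a covariate no probe passed 0.01 or 0.05 in limma (1471 at an unadjusted p under 0.05). The change of Igf1r was then -0.38 ± 0.32, that of Igf2r -0.24 ± 0.34, that of Jak2 -0.21 ± 0.29, that of Fzd4 -0.40 ± 0.43, that of Lrp6 -0.31 ± 0.41 and that of Scd2 -0.97 ± 0.33, whereas Pf4 kept 4.52 ± 0.93, Abca1 -2.34 ± 0.52 and Hes1, described below, 3.27 ± 0.41. Of 56 genes followed in this way, 20 of the 21 with a positive change and 18 of the 35 with a negative change kept at least 50% of it. Among them Lrp1, Ahnak, Rpl24 and Rpl14 are members of the index lists, so their adjusted changes are not independent of the index. The index and the step run together here, and how much of any fall goes with RNA quality was not tested.

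**Figure D2:**
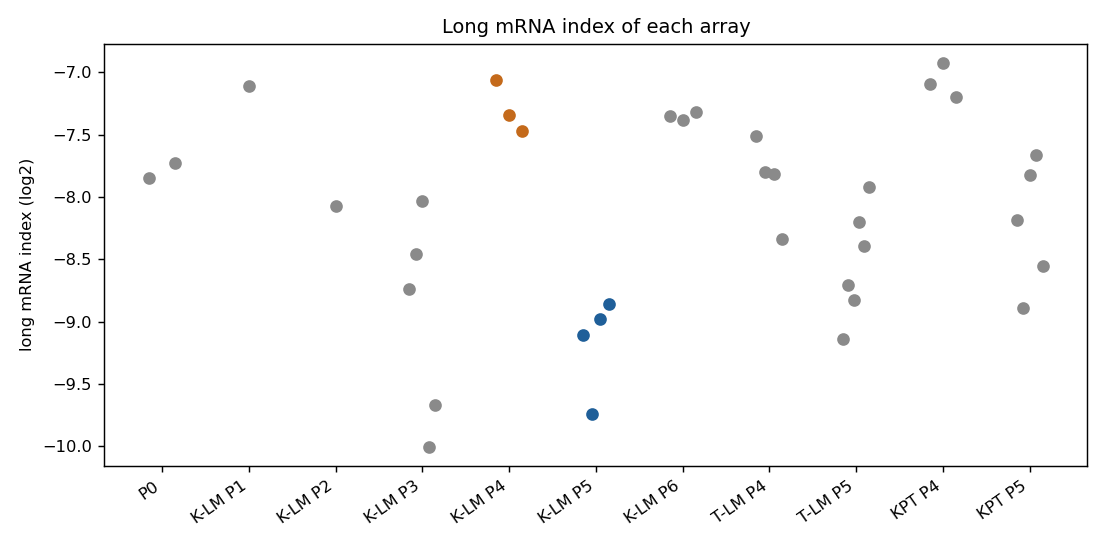
Long mRNA index (log2, mean of the long mRNA list minus mean of the cytosolic ribosomal protein list) of each array, for P0, the K-LM passages and the P4 and P5 samples of the other routes. Each point is an array. The 3 K-LM P4 samples (orange) lie between -7.47 and -7.06 and the 4 P5 samples (blue) between -9.74 and -8.86.

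**Figure D3:**
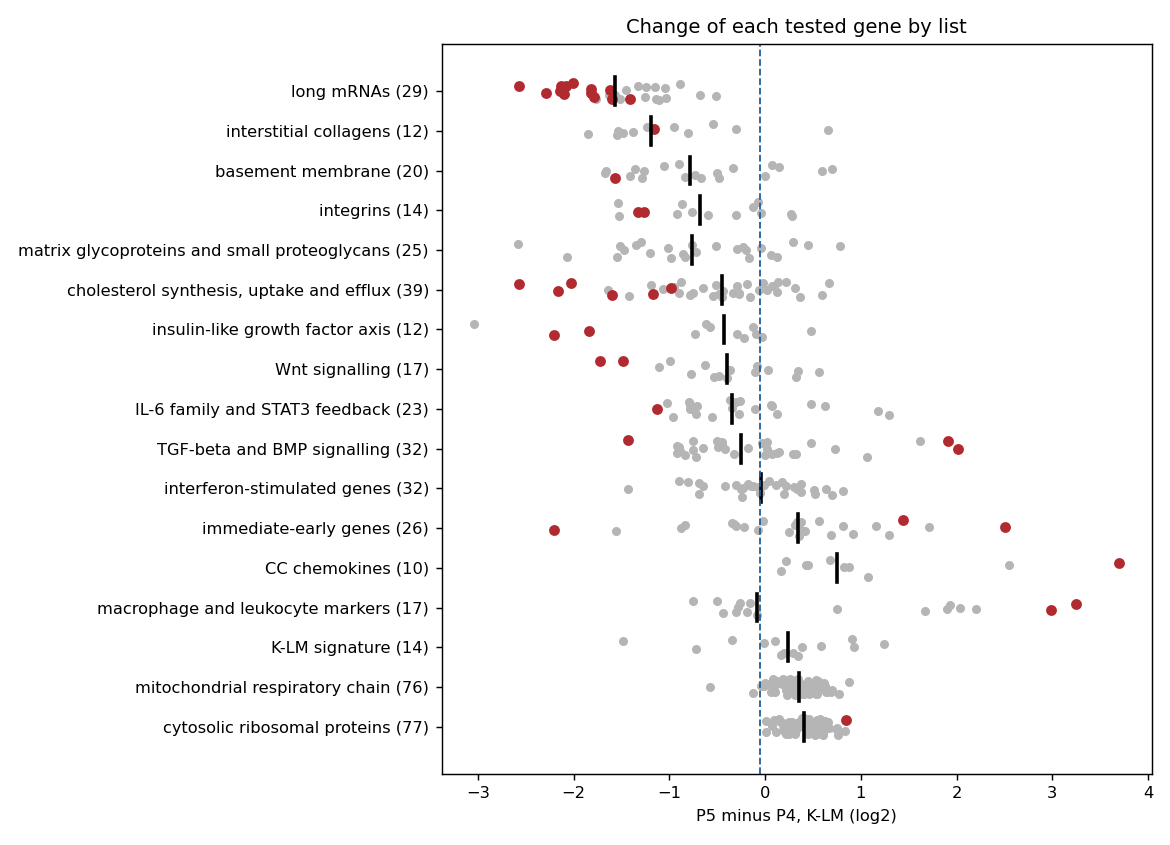
Change from P4 to P5 (log2) of every tested gene in 17 lists, with the number of genes in brackets. Each point is a gene, red points passed an adjusted p of 0.05, black bars are list medians and the dashed line is the median of all genes. The long mRNAs have the lowest median, -1.56, and the ribosomal proteins the highest but one, 0.41, below the CC chemokines at 0.75.

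Among genes of TGF-beta and BMP signalling, Id1 and Id3 rose and Bmpr2 fell. Id1, an inhibitor of basic helix-loop-helix factors and a direct BMP target, was at -3.12, -0.98 and -2.44 in P4 and at 0.00, -0.27, 0.04 and -0.43 in P5 and rose by 2.01 ± 0.43 (adjusted p = 0.0342). Id3 was at -1.37, -0.35 and -0.03 in P4 and at 1.67, 0.97, 1.68 and 0.96 in P5 and rose by 1.91 ± 0.43 (adjusted p = 0.0364). Id2, chosen after its values were seen, changed by 1.61 ± 0.46 and did not pass (adjusted p = 0.0696). For Id1 the P4 samples were spread and the P5 samples close together, and no sample of one group reached the other. The BMP receptor Bmpr2 fell by 1.43 ± 0.34 (adjusted p = 0.0418), and its change was -0.34 ± 0.43 with the index as a covariate. It was the third of 32 genes of TGF-beta and BMP signalling to pass, and the list median was -0.25.

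No list of Notch genes was examined. Hes1, a repressor that Notch can switch on, was at -7.00, -6.30 and -6.42 in P4, detected there in 1 sample, and at -4.20, -4.62, -3.95 and -4.50 in P5, detected in all. It rose by 2.25 ± 0.32 (adjusted p = 0.0110), and the P4 and P5 samples stood far apart. Jag1, a Notch ligand chosen after its values were seen, was at -3.53, -4.44 and -3.85 in P4 and at -6.03, -5.46, -5.81 and -5.22 in P5 and fell by 1.69 ± 0.32 (adjusted p = 0.0229).

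Of 26 immediate-early genes, which serum and stress switch on within minutes, 2 rose and 1 fell, with a median of 0.34. Fosb, a partner of Jun in the AP-1 factor, was at -6.40, -5.18 and -5.63 in P4 and at -3.09, -3.83, -2.46 and -3.54 in P5 and rose by 2.51 ± 0.41 (adjusted p = 0.0160). Dusp1, a phosphatase that ends MAP kinase signals, rose by 1.44 ± 0.30 (adjusted p = 0.0317). The nuclear receptor Nr4a2 fell by 2.2 ± 0.51 (adjusted p = 0.0406). Sgk1, a glucocorticoid-induced kinase chosen after its values were seen, was at -2.35, -2.19 and -2.91 in P4 and at -0.04, -1.08, 0.22 and -1.0 in P5 and rose by 2.01 ± 0.35 (adjusted p = 0.0180). In Id3, Fosb and Sgk1 alike, P5 replicates 2 and 5 lay above replicates 3 and 6, the same pairs as over all probes. Among the other rises with the smallest p, 3 genes were not detected at P4, so their folds are set against the lowest detected signal. Slc28a2, a nucleoside transporter, was detected in all 4 P5 samples and was at least 2.08-fold higher (adjusted p = 0.0111). Ifnb1, interferon beta, was 1.54-fold higher (adjusted p = 0.0111) and Prl8a9, of the prolactin family, 1.77-fold (adjusted p = 0.0160). Both were detected in only 2 P5 samples, so their folds are no strict bounds. No array of the fit outside P5 detected any of these 3 genes. They were thus tested only because of P5, where they were higher, and their p-values do not allow for that. With signals raised to a floor of -5.00, Ifnb1, Slc28a2 and Prl8a9 had no change, and neither had Fasn, Lyst and Itga1 among the genes given as lower. All P4 and P5 levels of these genes lay below the floor. Their change of 0 was thus fixed by the setting and does not tell whether they changed. The floor left small changes for Cbl (-0.01), Abca1 (-0.21), Xlr4a (-0.20), Xlr4b (-0.38) and Cspg4 (-0.38), and 1.14 for Tyrobp. Part of the levels of each of these genes also lay below it. None of 32 interferon-stimulated genes passed, with a median of -0.04.

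Acute-phase and complement genes did not move as groups. Hp, haptoglobin, was at -5.28, -2.54 and -4.87 in P4 and at -6.95, -8.10, -6.01 and -7.57 in P5, detected there in 1 sample, and fell by 2.93 ± 0.61 (adjusted p = 0.0299). It was the only one of 16 tested acute-phase genes to pass. C3, the central complement component, was at 1.41, 1.11 and 1.22 in P4 and at -0.72, -1.03, -0.32 and -0.42 in P5 and fell by 1.87 ± 0.31 (adjusted p = 0.0162), the only one of 15 complement genes to do so. Both groups of C3 levels were tight and clear of each other, and its change was -0.55 ± 0.25 with the index as a covariate. Dnmt3a, the de novo DNA methyltransferase, chosen after its values were seen, was detected in all P4 samples and in no P5 sample and was at least 3.28-fold lower (adjusted p = 0.0285). The X-linked lymphocyte-regulated genes Xlr4a and Xlr4b, neighbours on the X chromosome whose sequences are close and whose probes may share signal, fell together. Xlr4b fell by 2.29 ± 0.37 (adjusted p = 0.0151) and was detected in P5 in replicate 6 alone. Xlr4a fell to below detection, at least 2.44-fold lower (adjusted p = 0.0198).

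Matrix and adhesion genes tended to be lower at P5, with few calls. Of 12 interstitial collagen genes 11 changes were negative, with a median of -1.19, and 1, Col12a1, fell (-1.16 ± 0.27, adjusted p = 0.0394). Of 20 basement membrane genes 16 were negative, with a median of -0.78, and 1, the laminin chain Lama5, fell: it was at 0.48, -0.23 and 0.30 in P4 and at -1.44, -1.72, -1.32 and -1.07 in P5 (-1.57 ± 0.30, adjusted p = 0.0249). The integrin chains Itgav (-1.33 ± 0.26, adjusted p = 0.0249) and Itga1 (at least 1.30-fold lower, adjusted p = 0.0290) were the 2 of 14 that fell. Over all genes tested, 2.28% fell. With the index as a covariate the medians of these 3 lists were 0.28, 0.02 and 0.19, so their direction was not kept. The pericyte proteoglycan Cspg4 (NG2) was at -5.77, -4.33 and -4.53 in P4 and between -7.79 and -6.44 in P5, where it was not detected, and was at least 2.71-fold lower (adjusted p = 0.0223). It was the only one of 11 fibroblast and pericyte markers to fall. No array of the fit outside P4 detected Cspg4, so it was tested only because of P4, where it was higher.

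The spread within P4 was the other feature of these genes. Over 11627 genes the median SD was 0.425 among P4 samples and 0.223 among P5 samples, and P4 was the wider group in 9289. For the fibroblast and pericyte markers the median SD was 2.41 in P4 and 0.617 in P5, with P4 wider in 11 of 11 genes, for the interstitial collagens 1.95 and 0.386 (12 of 12), and for matrix glycoproteins 1.93 and 0.681 (25 of 25). These SDs rest on 3 and 4 samples, the latter in close pairs, and were not tested. Col1a1 was at -3.62, 0.87 and 1.73 in P4 replicates 1, 3 and 5, and at -1.46, -3.11, -1.51 and -2.69 in P5. Thy1, a fibroblast surface protein, was at -7.10, -1.78 and -0.21 in P4 replicates 1, 3 and 5, against -2.16, -4.42, -2.07 and -4.00 in P5. Decorin, Dcn, was at -2.23, 1.39 and 2.46 in P4 and at 0.59, 0.14, 1.45 and 0.23 in P5. In all 3 genes, chosen after their values were seen, P4 replicate 1 was the lowest of the 7 samples and P4 replicate 5 the highest, and the P5 samples lay between. P4 replicate 1 was thus the P4 sample with the highest levels of Ctss, Tyrobp and Ccl6 and the lowest of Col1a1, Thy1 and Dcn.

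The study had named a K-LM signature, a list chosen on the samples of this series and so no independent evidence of its direction. Signature genes without a single mouse counterpart were left out, and the other 14 showed no call in this step. Of the 14, 10 changes were positive and 4 negative, and the median was 0.24. The most positive was complement factor Cfb (1.24, adjusted p = 0.214), which was at -5.56, -1.94 and -3.56 in P4 and between -2.83 and -2.27 in P5. The most negative was Col6a1 (-1.48, adjusted p = 0.171). The acute-phase gene Saa1 was at -1.19, 0.44 and 1.62 in P4 and at 1.02, -0.29, 1.75 and -0.16 in P5, with full overlap.

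Set beside the other passages of the route, several P5 levels lay nearer to P3 than to P4. The 5 P3 samples had Scd2 between -0.56 and 0.70, Igf1r between -6.04 and -4.03, C3 between -2.14 and -0.78 and Hes1 between -5.87 and -4.51, and the 3 P6 samples had Scd2 between 1.00 and 1.91, Igf1r between -2.86 and -2.67, C3 between 1.21 and 1.86 and Hes1 between -7.20 and -6.78. For Scd2, Igf1r and C3 these P6 levels lie at or near those of P4 and clear of those of P5. The index took the same course: it ran from -10.0 to -8.03 in P3, from -7.47 to -7.06 in P4, from -9.74 to -8.86 in P5 and from -7.38 to -7.32 in P6. Pf4 and Ctss did not follow it. Pf4 was detected in no P3 and no P6 sample, at -8.60 to -8.10 and -9.25 to -9.18, and Ctss was at -7.79 to -5.92 in P3 and -6.48 to -5.96 in P6, below every P5 sample. The single P1 sample, which no test used, had Pf4 at -1.56 and Ctss at -2.40. P3 to P4 shares the P4 samples with the step described here, and all P6 arrays lay on a slide of their own, scanned with another software version, so no difference between steps was tested along the route.

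**Figure D4:**
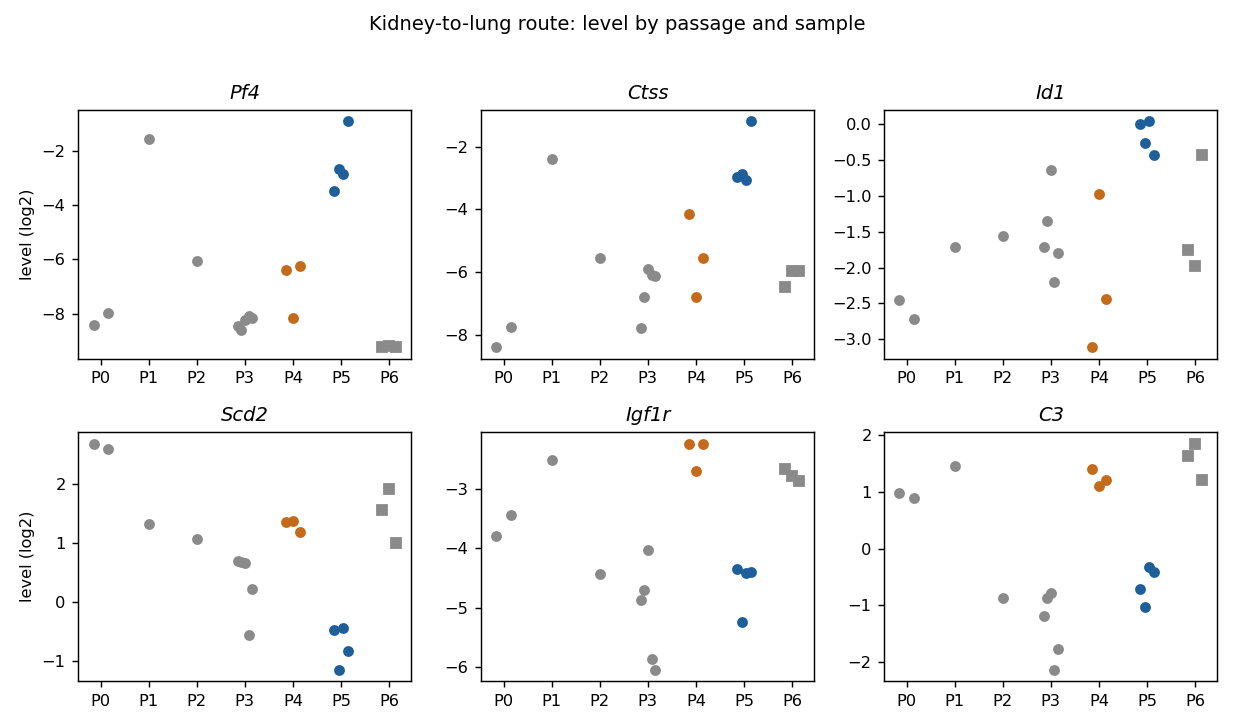
Array level (log2) of 6 genes in every K-LM sample by passage, with the parental P0 cells. Each point is a sample, P4 is orange, P5 is blue, and squares are the P6 arrays, which lay on another slide. Pf4 and Ctss stand highest at P5 among P2 to P6, while Scd2, Igf1r and C3 are lower at P5 than at P4 and P6.

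Whether the step differed from the same step in the other routes was tested in a fit of the 25 P4 and P5 arrays of all routes, whose samples are separate. The change differed between K-LM and T-LM at an adjusted p of 0.01 for 503 of 21828 probes (2.30%), more positive in K-LM for 209 and more negative for 294. With the P5 pairs averaged 49 passed and with the index as a covariate 10. Without P4 replicate 5 the count was 160, and without P5 replicate 2, 3, 5 or 6 it was 304, 302, 246 or 240. Between K-LM and KPT limma called 0 probes (2076 at an unadjusted p under 0.05, smallest adjusted p 0.0177, that of Scd2). In this fit the step itself gave 1417 calls in K-LM (6.49%), 2159 in T-LM (9.89%) and 92 in KPT (0.421%). The K-LM probes at 0.05 in the fit of 15 arrays were set beside the calls of the other routes at 0.01 in the fit of 25. These fits and thresholds are unlike, so the counts do not measure how much the routes share. Of the 553 probes lower in K-LM at 0.05, 60 were also called lower in T-LM and 2 higher. Of the 123 probes higher in K-LM, 19 were called higher in T-LM and 6 lower. In all, T-LM had 706 probes called higher (3.23% of those tested) and 1453 called lower (6.66%). In KPT, 24 of the 553 were called lower and 1 of the 123 higher, among 78 lower and 14 higher calls there. C3 was lower in KPT too (-2.95 ± 0.31, limma adjusted p = 4.73e-05).

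Several genes that fell in K-LM did not fall in T-LM. Scd2 changed by 0.50 ± 0.31 in T-LM and 1.37 ± 0.35 in KPT, and its difference from T-LM was -2.52 ± 0.48 (adjusted p = 0.00316). The differences from T-LM also passed for Tep1, Six4, Igf1r, Igf2r, Lrp1 and Lama5, each of which was detected in some samples of all 4 groups. Lrp1 had the largest of these, a difference of -3.41 ± 0.51 (adjusted p = 0.000873). The fitted differences of Fasn (adjusted p = 0.00188), Cbl (adjusted p = 0.00202), Cspg4 (adjusted p = 0.00382) and Lyst (adjusted p = 0.00247) passed too, but no K-LM P5 array detected these genes, so their size was not measured. Lyst was not detected in T-LM either. Abca1 was detected in no P5 sample of either route, and its difference did not pass (adjusted p = 0.619). Among the rises, the difference passed for Hes1, which changed by 0.02 ± 0.30 in T-LM (2.23 ± 0.46, adjusted p = 0.00541), and not for Fosb, which rose in T-LM too (2.23 ± 0.36, adjusted p = 0.0004; difference adjusted p = 0.782). The index changed by -1.88 in K-LM, -0.67 in T-LM and -1.15 in KPT, a difference between routes that was not tested.

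Large called differences between the routes also lay in genes not named above. Nav2, a neuron navigator of cell guidance, was detected in 2 K-LM P4 samples and in no K-LM P5 sample, and in T-LM in no P4 sample and 4 P5 samples, so that its difference (adjusted p = 0.00258) has no measured size. Nos2, the inducible nitric oxide synthase, overlapped between K-LM P4 and P5 (-0.39 ± 0.54, adjusted p = 0.686) and rose by 3.26 ± 0.50 in T-LM (difference -3.65 ± 0.78, adjusted p = 0.00714). Folr2, a folate receptor of macrophages, was detected in no K-LM sample of either passage and, in T-LM, in the 4 P4 samples and in no P5 sample, and its difference (adjusted p = 0.00544) rests on T-LM and has no measured size. Pf4 fell by 6.07 ± 1.79 in T-LM, from 0.70 to 1.87 at P4 to -6.23 to -0.28 at P5 (adjusted p = 0.0181), opposite to K-LM, and the difference of 10.5 ± 2.77 did not pass 0.01 (adjusted p = 0.0204).

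**Figure D5:**
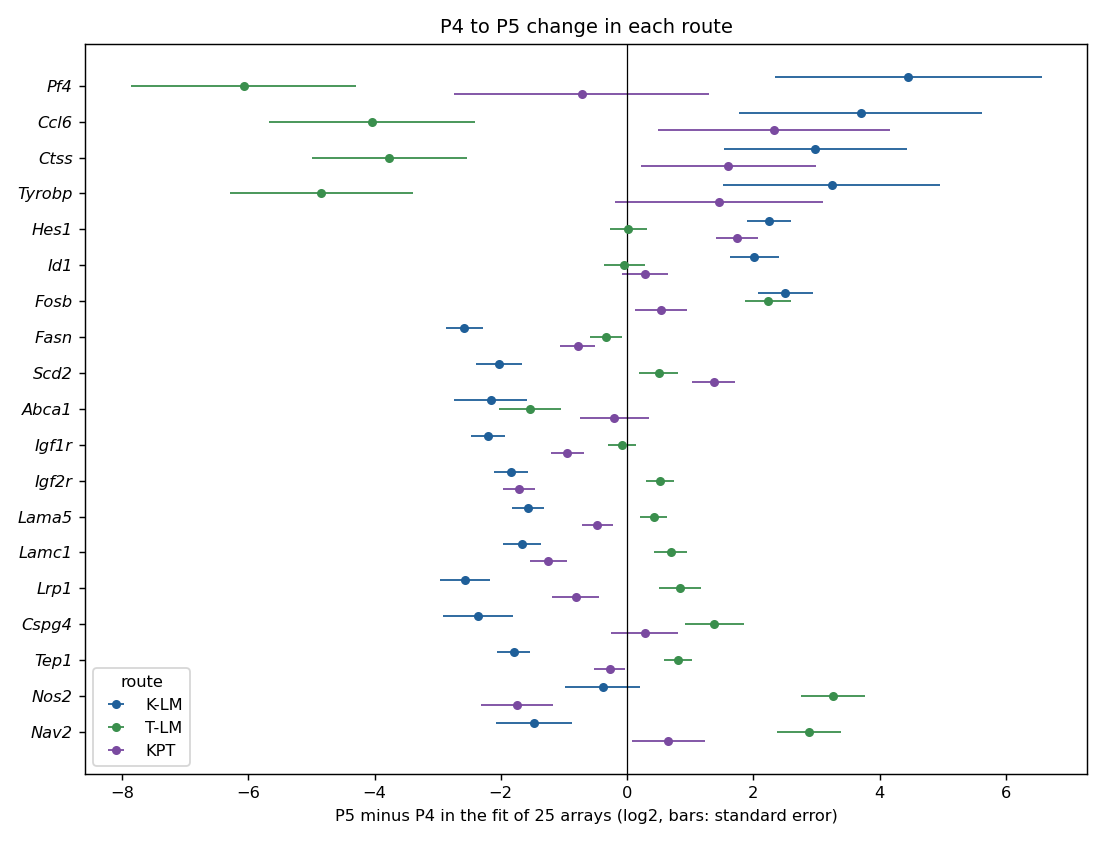
Change from P4 to P5 (log2, P5 minus P4) of 19 genes in each route, from the fit of 25 arrays. Points are estimates and bars standard errors for K-LM (3 and 4 samples), T-LM (4 and 6) and KPT (3 and 5). Pf4, Ccl6, Ctss and Tyrobp were positive in K-LM and negative in T-LM, while Lrp1, Lama5, Lamc1 and Tep1 were negative in K-LM and positive in T-LM. No K-LM P5 array detected Fasn, Abca1, Cspg4 or Nav2, so the K-LM points of these genes are fitted values and not measured sizes.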

How the data were processed

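Total RNA of cultured cells was labelled with Cy5 and hybridised to 1-colour Agilent mouse arrays. The authors deposited scanner files with signal intensity per spot, and log2 series values, which matched quantile-normalized log2 median signals to within 0.105. Of 62976 spots 3671 were controls and left out. The others were averaged into 55681 probes, of which 28020 matched 21150 symbols of a RefSeq table of GRCm38.p6. Processed signal intensities deposited by the authors were put on the log2 scale relative to the 75th percentile over commonly detected probes. Probes detected on at least 2 arrays of a fit were tested 2-sided in R 4.3.3 with the linear models and moderated statistics of limma 3.58.1 (Benjamini-Hochberg over all probes tested, threshold 0.01 with 0.05 as an alternative), by passage group over 15 arrays, or by route and passage over 25. Adjusted p-values are from limma. They do not allow for genes that met the detection filter only through the group where they were higher. Among the named genes these included Cbl, Lyst, Hp and Cspg4 through P4. Through P5 they included Tyrobp, Slc28a2, Ifnb1 and Prl8a9. A gene was represented by its probe that was brightest on average. Where no array of a group detected a gene, the fold is a bound against the lowest detected signal of each array. It is no strict bound where the other group was detected only in part, as for Fasn, Lyst, Ifnb1 and Prl8a9. Genes were named as the largest calls without overlap, filled to 6 per direction by the smallest p, and called or leading members of each list. Samples, lists and comparisons were chosen with earlier results of these data known. On simulated data for the K-LM comparison over 20367 probes, the fit recovered 33 of 50 probes changed by 2 log2 units at 0.01, and 2 unchanged probes were called. The simulated noise was independent between arrays and equally wide in every group. It held neither the close P5 pairs nor the wider P4 spread, so these counts need not hold for the real samples. Some genes are not reported here. Motifs were searched on both strands. Alternatives covered scaling, background correction, detection filters, flagged spots, a signal floor, the index, slide, other arrays in the fit, each sample left out, a replicate block and averaged P5 pairs. Replicate numbers were not used to pair samples in the main fits: no label links them, and only 2 numbers are shared. The number of arrays limits precision.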

Additional observations from a re-analysis of the deposited data

Results flagged for a closer look

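In K-LM P5, 4 of the 58 genes and measures examined had 1 sample apart from the other 3, by the gap to its nearest neighbour over the whole range. Chance gives about 1 in 20. For Ctss (0.905) and Lyz2 (0.892) it was replicate 6, the highest, at -1.19 and -1.93. For Igf1r (0.924) and Lrp6 (0.899) it was replicate 3, the lowest, at -5.24 and -5.32, which was also the P5 sample with the lowest index and the smallest share of detected probes.

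The step differed between K-LM and T-LM for 503 probes. Among the genes reported here it was more negative in K-LM for Nos2 (-3.65), Lrp1 (-3.41), Tep1 (-2.61), Scd2 (-2.52), Igf2r (-2.36), Lamc1 (-2.35), Igf1r (-2.12), Six4 (-2.05), Lama5 (-1.99), Ahnak (-1.93) and Acaca (-1.88), all as log2 differences between the changes. It was more positive for Hes1 (2.23). For a further set of genes at least 1 group was not detected on any array, so the fitted differences have no order and no measured size: Nav2 (-4.36), Cspg4 (-3.75), Fasn (-2.24), Cbl (-2.16), Lyst (-2.14) and Folr2 (4.36). The part of the index in these differences was not tested gene by gene.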

How the results depend on the processing

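The count of 9 probes changed from P4 to P5 depended on the setting. It was 15 with the percentile over all probes (6 higher, 9 lower), 27 with normexp and quantile normalization (13 and 14), 28 with the deposited values (13 and 15), 4 with flagged spots kept, 40 without the detection filter and 68 with signals raised to a floor. It was 0 with the index as a covariate, with slide as a random block (correlation -0.117; 4703 probes at an unadjusted p under 0.05), with P4 and P5 arrays only (5366) and with the P5 pairs averaged, an alternative chosen after seeing the data. It was 1149 with all routes in one model, 1577 with slide as a fixed block as well, 976 with P6 and repeat arrays, and 676 at 0.05. Leaving out 1 sample gave 0 to 50 (0 without P5 replicate 2, 3 or 5, 1 without replicate 6, 23 without P4 replicate 1, 50 without P4 replicate 3 and, without P4 replicate 5, 12, of which 9 higher and 3 lower).

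A replicate block, although no label pairs the samples by number, left 0 probes in K-LM (2513 at an unadjusted p under 0.05) and 0 in the difference from T-LM (5336). Deviations from the group means correlated at 0.344 between the replicates numbered 3 and at 0.365 between those numbered 5. The other P4 and P5 pairs gave -0.350 to 0.251. Of these, P4 replicate 3 gave 0.216 with P5 replicate 6, and P4 replicate 5 gave 0.251 with P5 replicate 2.

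The difference from T-LM, 503 probes, was 172 without the detection filter, 10 with the index, 40 with slide as a fixed block, 49 with averaged pairs and 160 to 671 with 1 K-LM sample left out, fewest without P4 replicate 5 and most without P4 replicate 3. The difference from KPT, 0 probes, was 7 with normexp, 8 with deposited values, 4 for probes detected on all arrays, 9 with the floor and 0 to 2 with 1 sample left out (2 without P4 replicate 3). The separation, 33.8%, was 31.9% to 44.6% with 1 sample left out and 30.6% with averaged pairs (exact p = 0.30), and the index difference, -1.88, was -1.98 to -1.69, -1.88 (p = 0.10) and within one slide -1.38. Designs of that size cannot pass 0.05.

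With the index as a covariate 7 values turned: Acaca (0.30), Lamc1 (0.17) and the medians of the ribosomal proteins (-0.13), respiratory chain (-0.0026), basement membrane (0.023), interstitial collagens (0.28) and integrins (0.19). The ribosomal proteins are themselves part of the index. Over 1365 gene values under alternatives, 1363 did not turn. With signals raised to a floor, Fasn, Lyst, Ifnb1, Slc28a2, Prl8a9 and Itga1 had a change of 0 and no direction. All their P4 and P5 levels lay below the floor, which fixed that outcome.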

Other observations

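Keratins and the plasminogen system, not described above, leaned upward without a call. Of 10 keratin genes 9 changes were positive, with a median of 0.58, and Krt20, of simple epithelia, was at -4.58, -3.85 and -0.88 in P4 and at -1.36, -0.91, -1.30 and -0.84 in P5 (2.00, adjusted p = 0.104). Of 11 genes of the plasminogen activator system 10 were positive, with a median of 0.68, and the inhibitor Serpinb2 changed by 1.69 (adjusted p = 0.109). The retinaldehyde dehydrogenase Aldh1a1 was at -7.47, -5.56 and -5.46 in P4 and at -4.44, -4.04, -3.20 and -4.70 in P5, without overlap (2.07, adjusted p = 0.0727). None of 51 cell cycle genes and none of 39 hypoxia and glycolysis genes passed 0.05, with medians of -0.09 and 0.02.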
